A study of Mus musculus with 2 samples.

Results

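The activin, inhibin, follistatin and BMP genes studied here are 10 genes taken from a fixed list of symbols: *Inha*, *Inhba*, *Inhbb* and *Bmp4* for ligand subunits, *Fst* and *Fstl3* for binding proteins, and *Acvr1b*, *Acvr2a*, *Acvr2b* and *Tgfbr3* for receptors. All 10 were found among the 47069 genes of the count table. They were measured by bulk RNA-seq in primary mouse pituitary cells, in 1 library from cells put into RNA-Best, a buffer meant to preserve RNA in intact single cells, and in 1 library from cells put into RNAlater, an established RNA stabilizer that served as the reference. Both samples came from randomly cycling C57BL/6 females of 10 to 12 weeks, with no genetic change and no hormone treatment. Each pooled 500000 to 700000 cells of 5 whole pituitaries that were acutely dissociated with enzymes, so all endocrine and supporting cell types were mixed. The comparison asks whether transcript levels of this feedback system were alike in the 2 reagents.

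Activins are dimers of beta subunits, encoded by *Inhba* (beta A) and *Inhbb* (beta B), and inhibins pair a beta subunit with the alpha subunit encoded by *Inha*. Activins bind a type II receptor, ACVR2A or ACVR2B, which recruits the type I receptor ACVR1B, and the signal passes through SMAD2, SMAD3 and SMAD4 to genes such as *Fshb*, the beta subunit of follicle-stimulating hormone. Inhibins block this signal by holding the type II receptors together with betaglycan, the product of *Tgfbr3*. Follistatin (*Fst*) and follistatin-like 3 (*Fstl3*) bind activins outside the cell and neutralize them. In the pituitary, activin B made by gonadotropes and follistatin made locally tune the secretion of follicle-stimulating hormone. BMP4 is a ligand of the related BMP branch, known for its part in forming the gland and in restraining corticotropes.

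The genes of each subfamily are related, so the coding sequences of chosen pairs were compared to see whether reads of 1 gene could be counted for its partner. The coding sequences of *Inhba* and *Inhbb* were identical at 68.0% of 1117 aligned bases, and the longest run of bases that they shared was 18. This run lies near the 3′ end of the coding sequence of both genes, in exon 5 of *Inhba* (GRCm38, chr13:16027081-16027126, plus strand) and exon 2 of *Inhbb* (chr1:119417325-119417370, minus strand). The stretches are shown because the beta subunits were the pair that differed most in level, and capitals mark the shared run:

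Inhba: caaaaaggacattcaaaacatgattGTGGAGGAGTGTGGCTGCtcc

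Inhbb: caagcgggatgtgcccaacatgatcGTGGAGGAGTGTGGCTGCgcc

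*Acvr2a* and *Acvr2b* were identical at 68.5% of 1503 aligned coding bases, with a longest shared run of 14 bases in exon 9 of each gene (chr2:48897028-48897091 and chr9:119432545-119432608, both on the plus strand). These stretches encode part of the kinase region of the type II receptors, and capitals again mark the shared run:

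Acvr2a: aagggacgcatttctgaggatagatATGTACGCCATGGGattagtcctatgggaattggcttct

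Acvr2b: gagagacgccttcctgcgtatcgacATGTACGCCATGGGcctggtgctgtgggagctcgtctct

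*Fst* and *Fstl3* shared at most 12 bases in a row. The counts of 8 of the 10 genes were whole in both libraries. The exceptions were *Bmp4* and *Acvr1b*, and the rule by which the authors' counting gave fractions was not stated. Neither gene was in a pair compared here. Over whole transcripts the longest runs shared by these pairs were the same, all shorter than the sequenced reads.

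The RNA-Best library held 53915047 counts and the RNAlater library 44917492. Levels are given as CPM, the gene's share of its library's total count scaled to 1000000. With 1 library per reagent there is no replicate error and no test between reagents. The intervals are at 95%, leave out any pseudocount and cover counting error only. PCR copies of 1 molecule can be read more than once, which these intervals do not allow for. A difference beyond its interval is a difference between these libraries, and reagent, cell pool and library preparation cannot be told apart. The pituitary label was checked on hormone genes: *Prl* and *Gh* were the 2 most abundant genes and took 29.7% of all counts in RNA-Best as against 23.2% in RNAlater, so that the CPM of all other genes is lowered more in RNA-Best. Of the 47069 genes, 16504 reached a mean of 1 CPM over the libraries and were compared. Of the 10 genes 9 reached it, all but *Fst*. The median log2 ratio of RNA-Best to RNAlater over the genes compared was -0.18 (0.5 CPM added to both levels).

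The inhibin alpha gene *Inha* (ENSMUSG00000032968.4, GRCm38, chromosome 1, 75507077-75510366, plus strand, 2 exons) was counted 1267 times in RNA-Best and 1433 times in RNAlater, giving 23.5 and 31.9 CPM. The RNAlater level was thus 1.36 times that of RNA-Best (1.26 to 1.47). The beta B gene *Inhbb* (ENSMUSG00000037035.5, chromosome 1, 119415465-119422248, minus strand, 2 exons) had 1855 and 2786 counts. It stood at 34.4 CPM in RNA-Best against 62.0 CPM in RNAlater, a ratio of 1.80 (1.70 to 1.91) in favour of RNAlater. *Inhbb* had the highest CPM of the 10 genes in both libraries. By CPM per kb of transcript, the scale on which different genes can be compared, *Inha* stood above it.

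The beta A gene *Inhba* (ENSMUSG00000041324.13, chromosome 13, 16011851-16031621, plus strand, 5 exons) was close to the limit for comparison, with 57 counts in RNA-Best against 138 in RNAlater. Its level was 1.06 CPM (0.801 to 1.37) in RNA-Best and 3.07 CPM (2.58 to 3.63) in RNAlater, and these intervals do not overlap. The RNAlater level was 2.91 times that of RNA-Best (2.12 to 4.03), and the log2 ratio with 0.5 CPM added was -1.20. *Inhba* was the 1 gene of the 9 compared that was at least 2-fold lower in RNA-Best, and 4.99% of all genes compared were, as were 20.9% of those in its transcript length class of 6 to 10 kb. It passed 2-fold with each of the 3 other scalings, though its interval then included smaller differences. It did not pass with 5 CPM added to both levels or after removal of the trend on transcript length (-0.61). Nor did it after removal of a fit on length and GC content (-0.86). None of the 9 was at least 2-fold higher, as against 0.273% of all genes compared.

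*Bmp4* (ENSMUSG00000021835.14, chromosome 14, 46383520-46390669, minus strand) held 118.25 counts in RNA-Best against 184.14 in RNAlater, or 2.19 and 4.10 CPM. The RNAlater level was 1.87 times that of RNA-Best (1.48 to 2.38). All 4 ligand subunit genes were therefore lower in the RNA-Best library beyond counting error.

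**Figure D1:**
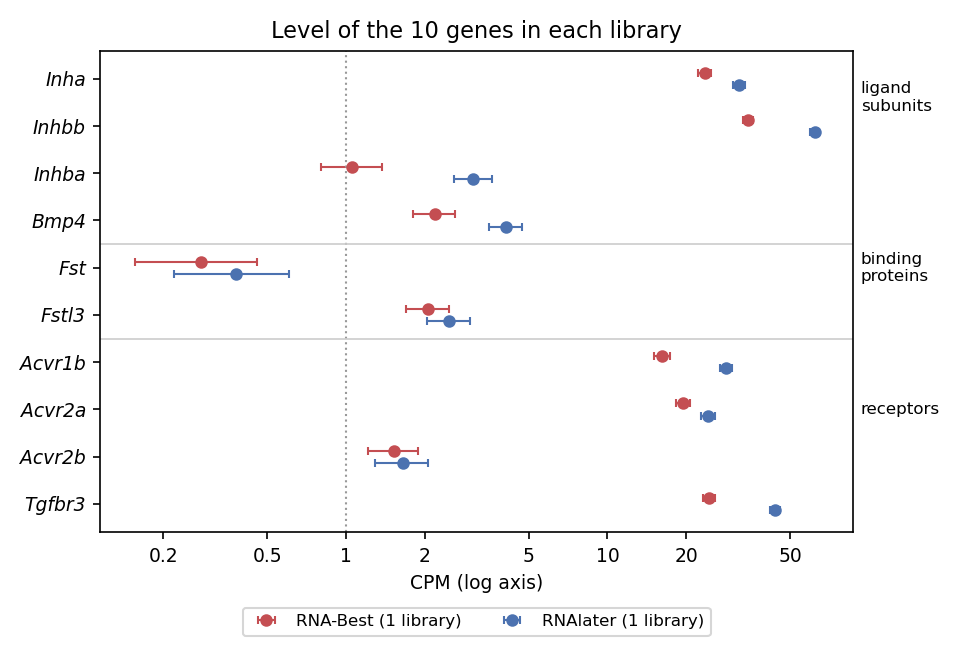
Level of each gene in CPM (log axis) in the RNA-Best and the RNAlater library, with exact Poisson 95% intervals of the counts, grouped by role. The points of *Inha*, *Inhbb*, *Inhba*, *Bmp4*, *Acvr1b*, *Acvr2a* and *Tgfbr3* stand apart between libraries, those of *Fst*, *Fstl3* and *Acvr2b* have overlapping intervals, and *Fst* lies below the dotted line at 1 CPM in both.

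The binding protein genes were among the least abundant of the 10. *Fst* (ENSMUSG00000021765.7, chromosome 13, 114452290-114458951, minus strand) was detected by 15 counts in RNA-Best against 17 in RNAlater. These amount to 0.278 CPM (0.156 to 0.459) and 0.378 CPM (0.220 to 0.606). The ratio of RNAlater to RNA-Best was 1.36, and its interval of 0.639 to 2.93 spans both directions, so no difference was detectable at this depth. *Fstl3* (ENSMUSG00000020325.10, chromosome 10, 79777272-79782630, plus strand) was counted 111 times in each library, which is 2.06 CPM in RNA-Best against 2.47 CPM in RNAlater. Its ratio of 1.20 (0.914 to 1.58) equals the ratio of the library totals and also spans both directions. Exons of *Prss57* on the opposite strand cover 47.3% of the exon bases of *Fstl3*. *Prss57* itself had 33 counts in RNA-Best against 15 in RNAlater. The strand setting of the counting was not stated, so reads of the shared bases cannot be told apart and the level of *Fstl3* is uncertain.

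Among the receptors, the type I receptor gene *Acvr1b* (ENSMUSG00000000532.10, chromosome 15, 101174067-101213684, plus strand, 9 exons) stood at 16.2 CPM in RNA-Best against 28.4 CPM in RNAlater. The RNAlater level was 1.76 times that of RNA-Best (1.61 to 1.92). The co-receptor gene *Tgfbr3* (ENSMUSG00000029287.14, chromosome 5, 107106570-107289629, minus strand, 17 exons) had 24.5 and 43.6 CPM, a ratio of 1.78 (1.66 to 1.91). *Acvr1b*, *Tgfbr3* and *Inhbb* thus differed between the libraries by nearly the same factor.

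The type II receptor genes differed less. *Acvr2a* (ENSMUSG00000052155.5, chromosome 2, 48814109-48903269, plus strand, 11 exons) had 1051 counts in RNA-Best against 1091 in RNAlater, or 19.5 and 24.3 CPM, and a ratio of RNAlater to RNA-Best of 1.25 (1.14 to 1.36). Exons of *Orc4* on the opposite strand share 7.84% of its exon bases. *Orc4* had the higher level, 43.5 and 40.2 CPM, and was higher in RNA-Best by this scale, so with strand use not stated the level and ratio of *Acvr2a* are uncertain. *Acvr2b* (ENSMUSG00000061393.13, chromosome 9, 119402118-119434995, plus strand, 11 exons) had 82 and 74 counts, or 1.52 and 1.65 CPM. Its ratio of RNAlater to RNA-Best, 1.08, was the smallest of the 10. With RNA-Best over RNAlater its log2 ratio was -0.09, with an interval of -0.59 to 0.36, and a difference was not detectable at this depth.

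All 9 genes compared had a log2 ratio below 0, apart from *Acvr2b* with the 3 other scalings, and 67% of all genes compared did, or 50.4% to 55.5% with those scalings. The interval lay wholly below 0 for 7 of the 9 and for 51.2% of all genes compared. Below the median of all genes stood 8 of the 9, where 50% stand by construction, and the exception was *Acvr2b*. The 9 genes are all protein-coding. Of the 13805 protein-coding genes compared, 9987 had a log2 ratio below 0 and 7954 an interval wholly below it. Below the median of all genes stood 7578 of these, and 800 were at least 2-fold lower. With TMM, DESeq2 size factors or totals without *Prl* and *Gh*, *Acvr2b* stood on the positive side, within its interval, while the other 8 stayed below 0 and 7 intervals again lay wholly below it. The median log2 ratio of the 9 was -0.77, which is 0.60 below that of all genes. By role, the medians were -0.81 for the 4 ligand subunit genes and -0.55 for the 4 receptor genes. Relative to the trend on transcript length these medians were -0.56 and -0.08. These counts describe 2 libraries and are no test of the family.

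**Figure D2:**
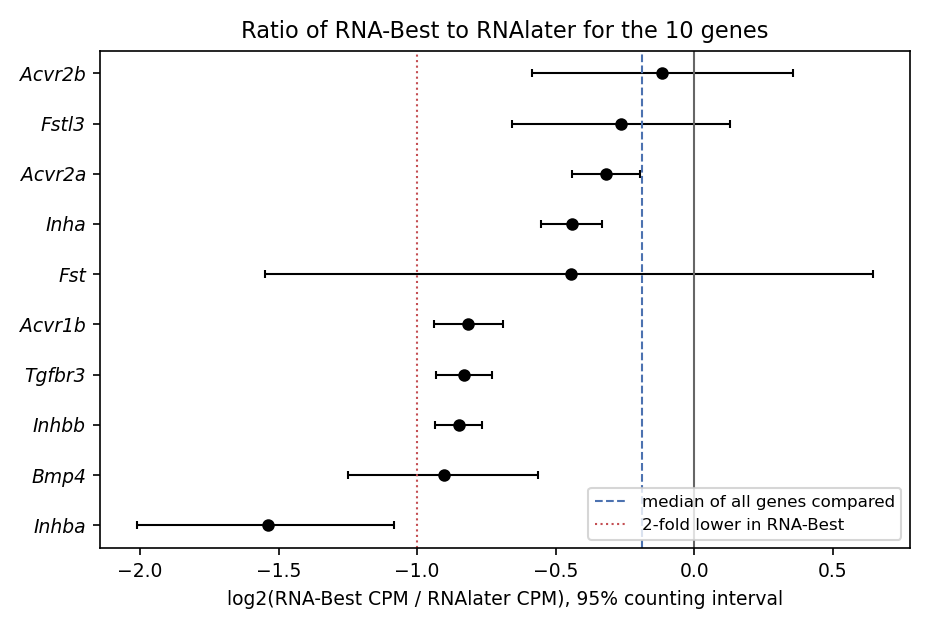
log2 ratio of RNA-Best to RNAlater for each of the 10 genes, without a pseudocount, with the exact conditional binomial 95% interval. The interval of *Inhba* (-2.01 to -1.08) lies wholly beyond the dotted line of a 2-fold difference, and the intervals of *Acvr2b*, *Fstl3* and *Fst* cross 0. The dashed line is the median of all genes compared.

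Levels were then compared between genes, as CPM per kb of the longest annotated transcript. The order was the same in both libraries. *Inha* led with 15.9 CPM per kb in RNA-Best and 21.6 in RNAlater, followed by *Inhbb* (8.09 and 14.6), *Tgfbr3* (4.03 and 7.16), *Acvr1b* (3.66 and 6.44), *Acvr2a* (3.43 and 4.27), *Bmp4* (1.06 and 1.99), *Fstl3* (1.05 and 1.26), *Acvr2b* (0.479 and 0.519), *Inhba* (0.165 and 0.481) and *Fst* (0.0952 and 0.130). Among all genes compared with a known length, *Inha* lay at the 77.5th percentile in RNA-Best and the 82.3rd in RNAlater, and *Inhbb* at the 62.1st and 74.0th. *Inhba* lay at the 0.639th and 3.24th percentiles. In RNA-Best the neighbours *Acvr1b* and *Acvr2a*, *Bmp4* and *Fstl3*, and *Inhba* and *Fst* did not differ beyond counting error. In RNAlater this held for *Acvr2b* and *Inhba* only.

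Ratios between 2 genes of the same library do not depend on how libraries are scaled. The beta B gene exceeded the beta A gene by 48.9 times in RNA-Best (37.6 to 64.8) and by 30.3 times in RNAlater (25.5 to 36.2). The ratio of these ratios was 1.61 (1.17 to 2.25), beyond counting error but not adjusted for transcript length. Relative to the trend on length, the log2 ratios were -0.61 for *Inhba* and -0.51 for *Inhbb*. With GC content fitted as well they were -0.86 and -0.22. The level of *Inhbb* relative to *Inha*, whose products pair to form inhibin B, was 0.508 (0.472 to 0.546) in RNA-Best and 0.674 (0.632 to 0.719) in RNAlater, and the ratio of 0.753 (0.684 to 0.830) between libraries was again beyond counting error. The alpha subunit transcript thus exceeded the beta B transcript in both libraries, and by more in RNA-Best. Their lengths differ, at 1475 bases for *Inha* and 4255 for *Inhbb*. Relative to the trend on transcript length, their log2 ratios were nearly equal, -0.50 for *Inha* and -0.51 for *Inhbb*. With GC content fitted as well they were -0.49 and -0.22.

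The type II receptor *Acvr2a* exceeded *Acvr2b* by 7.16 times in RNA-Best (5.71 to 9.07) and 8.23 times in RNAlater (6.50 to 10.6). Between libraries this ratio differed by a factor of 0.869 (0.619 to 1.22), an interval that includes no difference. *Fst* stood at 0.0904 of the level of *Fstl3* in RNA-Best (0.0490 to 0.156) and at 0.103 in RNAlater (0.0577 to 0.172). The factor between libraries was 0.882, and its interval of 0.389 to 1.98 leaves both directions possible.

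The promoters of the beta subunit genes are shown because these 2 genes of 1 subfamily were so far apart in level. Each sequence runs from 250 bases before to 50 bases after the gene's start (RefSeq, GRCm38.p6), with capitals for the CG dinucleotides. The promoter of *Inhba* (chr13:16011601-16011900, plus strand) holds 7, which is also the median of the 32851 promoters in the table. That of *Inhbb* (chr1:119422199-119422498, minus strand) holds 23, and 21.5% of all promoters hold as many or more:

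Inhba promoter: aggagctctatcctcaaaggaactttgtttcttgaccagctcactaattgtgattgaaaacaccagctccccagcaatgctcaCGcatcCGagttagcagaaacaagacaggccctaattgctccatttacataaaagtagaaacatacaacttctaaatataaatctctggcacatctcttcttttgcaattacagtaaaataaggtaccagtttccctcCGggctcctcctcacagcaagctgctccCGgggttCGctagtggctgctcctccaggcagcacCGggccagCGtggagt

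Inhbb promoter: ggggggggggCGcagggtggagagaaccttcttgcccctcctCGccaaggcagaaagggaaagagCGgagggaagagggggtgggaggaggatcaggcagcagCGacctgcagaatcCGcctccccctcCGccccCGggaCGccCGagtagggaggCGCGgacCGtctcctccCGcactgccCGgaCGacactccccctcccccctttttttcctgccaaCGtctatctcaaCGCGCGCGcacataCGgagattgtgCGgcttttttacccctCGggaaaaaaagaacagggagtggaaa

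The table had an entry for 8 of the 10 genes. The receptor genes held the most CG dinucleotides, with 54 for *Acvr2a*, 51 for *Acvr1b* and 27 for *Acvr2b*. *Fstl3* held 25 and *Bmp4* 12. The entry for *Inha* begins inside the gene as annotated here, so it was not read as a promoter.

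The ratio of RNA-Best to RNAlater falls with transcript length across all genes, so each gene was set against the genes of its own length. The longest transcripts were those of *Inhba* (6390 bases), *Tgfbr3* (6087), *Acvr2a* (5686), *Acvr1b* (4418) and *Inhbb* (4255). Those of *Acvr2b* (3175), *Bmp4* (2064), *Fstl3* (1955) and *Inha* (1475) were shorter. The coding sequence makes up the smaller part of most of them: in *Inhba* 1272 of the 6390 bases are coding, and in *Inhbb* 1233 of the 4255. Relative to the LOWESS trend on length, the log2 ratio of *Bmp4* was 0.74 lower, that of *Inhba* 0.61, *Inhbb* 0.51, *Inha* 0.50, *Acvr1b* 0.44, *Tgfbr3* 0.26 and *Fstl3* 0.20. *Acvr2a* and *Acvr2b* stood above the trend, by 0.20 and 0.10.

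Of the 9 genes compared, 7 thus lay below the trend, as did 8037 of the 16443 genes compared with a length. The short transcripts stood out more within their class than among all genes. *Inha* lay at the 27.9th percentile of the ratios of all genes but at the 7.11th among the 2713 genes with transcripts of 1 to 2 kb, whose median was 0.07. *Bmp4* lay at the 10.6th percentile of all genes and at the 2.61st of the 3108 genes of 2 to 3 kb. In contrast, *Tgfbr3* lay at the 9.13th percentile of all genes and at the 34.7th of the 1757 genes of 6 to 10 kb. *Inhba* lay at the 2.31st and the 10.1st percentiles. With GC content fitted together with length, *Inhbb*, which has 60.9% GC, stood 0.22 below the fit instead of 0.51, whereas *Inhba*, with 41.4% GC, stood 0.86 below it. *Acvr2a* was then at -0.06.

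**Figure D3:**
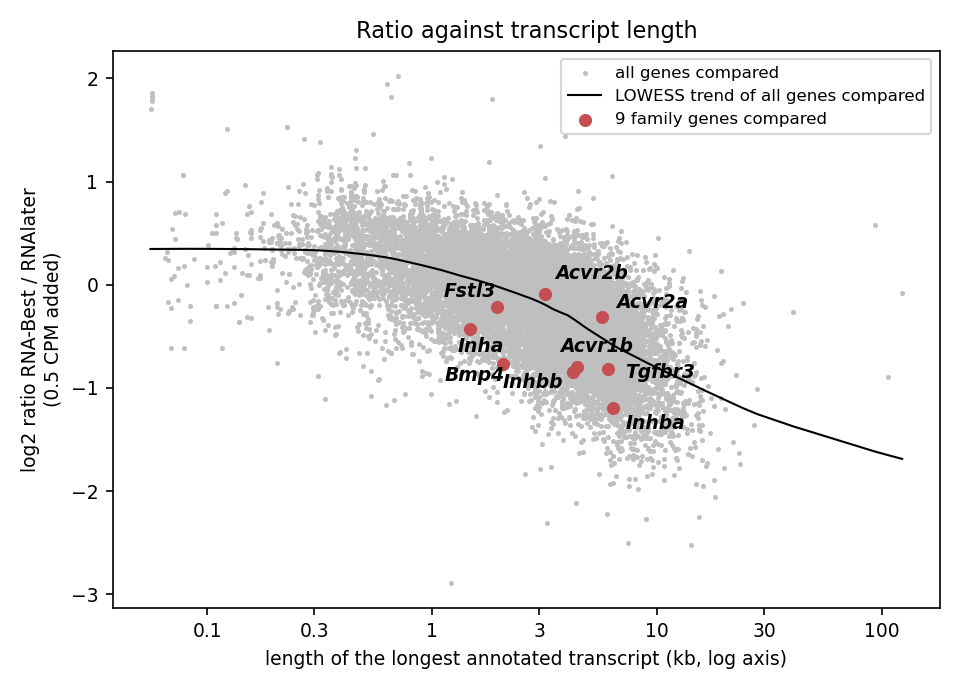
log2 ratio of RNA-Best to RNAlater (0.5 CPM added) against the length of the longest annotated transcript (log axis) for all genes compared (grey) and the 9 family genes compared (red), with the LOWESS trend. *Inha*, *Bmp4*, *Inhbb*, *Acvr1b* and *Inhba* lie 0.44 to 0.74 below the line, while *Acvr2a* and *Acvr2b* lie above it.

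The rest of the pathway was described from a list of 66 further genes, of which 51 reached 1 CPM. Lower in RNA-Best were 50 of the 51, where 67% of all genes compared were. With the other scalings 42 to 47 of the 51 were lower, where 50.4% to 55.5% of all genes compared were. Below the median of all genes stood 43. Below the trend on transcript length stood 36, as did 8037 of the 16443 genes compared with a length. The 1 gene higher in RNA-Best by total-count CPM was *Fshb*, a target of activin, with 67.1 CPM there against 52.0 CPM in RNAlater. The median log2 ratio of the 51 was -0.46, which is 0.28 below all genes. At least 2-fold lower were 3 genes, *Tgfb1*, *Eng* and *Rgma*, and none was at least 2-fold higher. With 4.99% and 0.273% of all genes compared past these limits, 3 of 51 is near the share of all genes. The intervals of *Tgfb1* and *Rgma* also include smaller differences.

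All 9 ligands compared in the wider list stood below the median of all genes, and 8 of them below the trend on transcript length. *Tgfb1*, which encodes the ligand TGF-beta 1, had 8.07 CPM in RNA-Best against 17.3 CPM in RNAlater and a log2 ratio of -1.05 (interval -1.27 to -0.93). The highest ratio was that of *Bmp3*, at -0.28. Per kb the most abundant of these ligands was *Bmp6*, with 5.47 and 7.33 CPM per kb, above *Bmp4* and below *Inhbb*. All 8 other receptors stood below the median of all genes as well, but only 3 of them below the trend on transcript length. Their median length was 5.86 kb, and their median log2 ratio relative to the trend was 0.12. The BMP type II receptor *Bmpr2* had the lowest ratio, -0.91, and the BMP type I receptor *Bmpr1b* the highest, -0.19 (-0.81 to 0.28). *Bmpr1a* was the most abundant per kb, at 11.1 and 13.9 CPM per kb, above all 4 receptor genes of the family.

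Co-receptors and decoys held the other 2 genes past 2-fold. *Eng*, which encodes endoglin, a co-receptor of endothelial cells, had 24.6 CPM in RNA-Best against 55.9 CPM in RNAlater (log2 ratio -1.17, interval -1.28 to -1.09). *Rgma*, a BMP co-receptor, had 3.12 and 7.17 CPM (-1.08, interval -1.48 to -0.93). *Tgfbr3l*, a relative of betaglycan that binds inhibin B in gonadotropes, had 2.19 and 2.58 CPM (-0.20, interval -0.62 to 0.14), and the decoy receptor *Bambi* had 24.8 and 25.0 CPM (-0.01, interval -0.13 to 0.11). *Igsf1* was the most abundant per kb, at 53.3 and 60.5 CPM per kb, though its place in this role comes from the list alone and was not tested. Of the 7 other extracellular antagonists compared, 4 stood below the median of all genes, and their log2 ratios ran from -0.46 for *Nbl1* to -0.16 for the BMP antagonist *Chrd*. *Twsg1* led by level with 23.8 and 29.5 CPM per kb, far above *Fst* and *Fstl3*.

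Inside the cell, all 8 Smad genes stood below the median of all genes, and 6 of them below the trend on transcript length. The activin-regulated Smads differed among themselves: *Smad3* had 40.2 CPM in RNA-Best against 76.2 CPM in RNAlater and a log2 ratio of -0.91, whereas *Smad2* stood at -0.33 (-0.44 to -0.23). *Smad4*, the partner of both, was the most abundant Smad gene per kb in RNA-Best and stood at -0.30 (-0.39 to -0.22). All 5 intracellular regulators stood below the median of all genes, and 4 of them below the trend on transcript length. Their log2 ratios ran from -0.96 for the co-repressor *Ski* to -0.47 for *Skil*, and *Tgif1* was the most abundant of them per kb. Of the 8 targets 4 stood below the median of all genes, and 7 below the trend on transcript length. The ends of their range were *Fshb*, at 0.36 (0.29 to 0.44), and *Foxl2*, a transcription factor that acts with Smads on *Fshb*, at -0.52 (-1.05 to -0.24). *Gnrhr*, the receptor gene of gonadotropin-releasing hormone, stood at -0.09 (-0.22 to 0.03). The early BMP target *Id3* was the most abundant per kb.

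**Figure D4:**
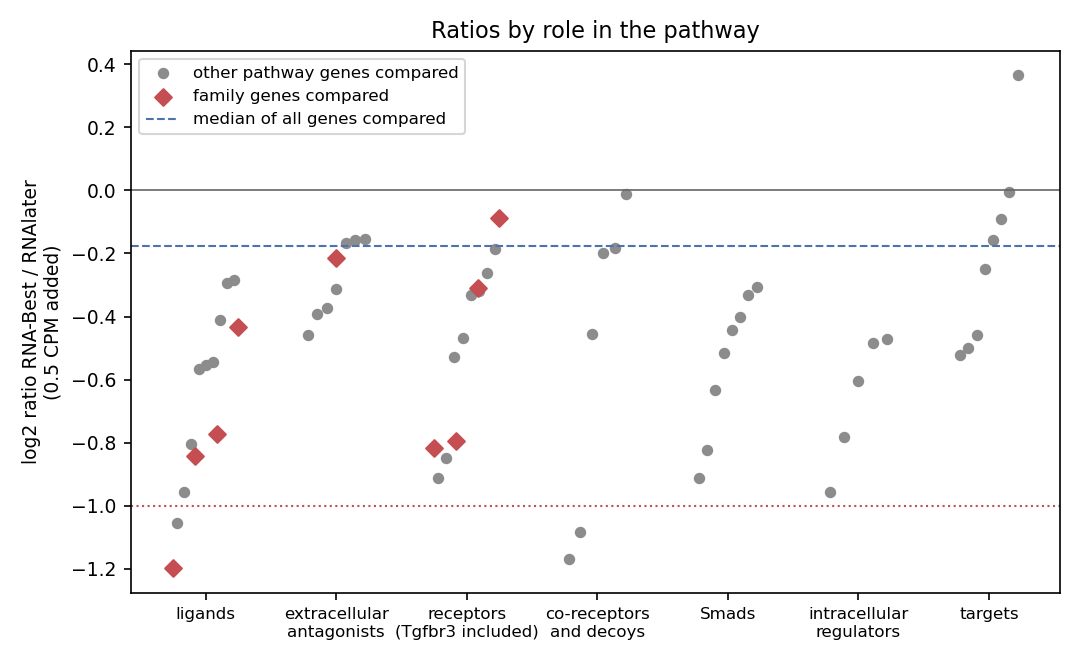
log2 ratio of RNA-Best to RNAlater (0.5 CPM added) for the 9 family genes (diamonds) and the 51 further pathway genes compared (circles), by role. The dashed line is the median of all genes compared (-0.18) and the dotted line a 2-fold difference, which *Inhba*, *Tgfb1*, *Eng* and *Rgma* pass. *Fshb* is the 1 gene above 0, and with the other scalings further genes stand above 0 as well.

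In bulk samples, fewer cells of a type and less RNA per cell cannot be told apart, so markers of the cell types in the gland were read beside these results. Markers of the other hormone cells (*Gh*, *Ghrhr*, *Prl*, *Pomc* and *Tshb*) were lower in RNA-Best for 1 of 5, with sums of 306358 and 238646 CPM. Of these sums *Prl* alone held 235654 and 172302 CPM, and *Gh* had a log2 ratio of 0.04. Gonadotropes, a known site of *Inhbb* in the gland, were judged by *Fshb*, *Lhb*, *Gnrhr*, *Nr5a1* and *Cga*. None of these 5 lay below the median of all genes, 3 were higher in RNA-Best, and their summed level was 793 CPM in RNA-Best against 571 CPM in RNAlater. Of these sums *Cga* alone held 542 and 358 CPM, and whether gonadotropes alone made it was not tested. The log2 ratios of *Lhb* and *Fshb* were 0.27 and 0.36. *Gnrhr* and *Nr5a1* each had a log2 ratio of -0.09, with intervals that include 0. Relative to the trend on transcript length the median of the 5 was 0.07. Set against the median of all genes, markers of supporting cells went the other way. All 5 endothelial markers were below the median of all genes, with sums of 313 and 618 CPM, as were all 6 markers of pericytes and fibroblasts (128 and 223 CPM), all 5 of stem and folliculostellate cells (169 and 252 CPM) and all 3 of the posterior lobe (40.2 and 85.3 CPM). Macrophage markers were split, 2 of 4 below the median, with sums of 95.5 and 92.5 CPM. Marker lengths differ, with medians of 1.04 kb for the other hormone cells, 3.52 kb for endothelial cells and 5.49 kb for pericytes and fibroblasts. Relative to the trend on transcript length the medians of these 3 groups were 0.26, -0.89 and -0.51. They were -0.51 for stem and folliculostellate cells, -0.46 for the posterior lobe and -0.04 for macrophages. No marker of any list was at 0. The part of these cell types in the lower levels of *Inhba*, *Bmp4*, *Inhbb*, *Acvr1b* and *Tgfbr3* was not tested.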

How the data were processed

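Poly(A) RNA of 2 pituitary cell samples was sequenced as single reads from TruSeq mRNA libraries, 1 library for each reagent named in the labels. The authors deposited 1 table of reads per gene for both libraries. The deposited values are estimated counts of reads, which the authors did not normalize. Of the values above 0, 35.4% in RNA-Best and 34.9% in RNAlater were not whole. Per the submitters' processing notes, STAR 2.5.1b and featureCounts 1.5.0-p1 were used on mm10. How reads were divided and whether strand was used were not stated. No replicate was pooled.

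Symbols, positions and transcript lengths came from GENCODE M21 on GRCm38 (46488 of 47069 identifiers matched, version suffix ignored), and promoters from RefSeq. CPM used the column total. Log2 ratios had a pseudocount of 0.5 CPM, which understates differences of weakly expressed genes, while folds and intervals had none. Genes averaging 1 CPM or more over both libraries were compared, by size, at a limit of 2-fold. Counts were rounded for exact conditional binomial and Poisson intervals (95%). Levels between genes and the trend on length used the longest annotated transcript. For *Fst* it is a retained intron, as it is for *Tgfb1*, *Tgfbr3l*, *Chrd* and *Tgif1* of the wider list. Among the markers the same holds for *Ghrhr*, *Tshb*, *Emcn*, *Dcn* and *Rax*. LOWESS had a span of 0.2. With 1 library per group, the linear model of the study could not be used and no p-value is given. Scaling factors came from edgeR 4.0.16 and DESeq2 1.42.0 (R 4.3.3), the rest from Python 3.11.15 with scipy 1.17.1 and statsmodels 0.14.6, and the steps were tested on simulated data.

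The members and lists were chosen with earlier results of these data known. Named are all 10 genes and, in each role of the wider list, genes past 2-fold, both ends of the ratio, the most abundant gene per kb, and *Fshb*, *Gnrhr*, *Tgfbr3l* and *Smad2* to *Smad4*. With 2 libraries a pattern over samples is 1 ratio, so no gene was named for a like pattern. Alternatives were other scalings, pseudocounts, filters, depth and lengths, given in the closing section.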

Additional observations from a re-analysis of the deposited data

How the results depend on the processing

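No paired analysis was possible because a group is 1 library and the labels hold no replicate numbers. The fits without a pseudocount or on length and GC together, and the longest protein-coding transcript, were chosen after seeing the data. Where a value moved, the cause was not tested.

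Scaling moved the centre of all genes from -0.18 to -0.01 with TMM, 0.00 with DESeq2 size factors and -0.06 with *Prl* and *Gh* left out of the total. The median log2 ratio of the family genes was then -0.62 with TMM and -0.61 with size factors, and that of the wider list -0.29, -0.28 and -0.33. Relative to the centre the family stayed between -0.62 and -0.60 under these scalings. The family median was -0.37 with a pseudocount of 5 CPM, which shrinks weak genes, -0.60 with no filter, -0.44 after removal of the length trend and -0.28 after the fit on length and GC. The wider list stood at -0.34, -0.40, -0.15 and -0.10.

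The count of genes at least 2-fold lower was 0 with 5 CPM, with a mean of at least 10 CPM (which drops *Inhba*), after the length trend and after the fit on length and GC. With at least 10 CPM, 5 genes were tested and 5 lay below the median of all genes. *Acvr2a* changed sign after removal of the length trend, to 0.20. Genes of the wider list below 0 numbered 43, 42 and 47 under the 3 other scalings. With the median transcript length, *Acvr2a* exceeded *Acvr2b* by 4.30 times in RNA-Best and 4.95 in RNAlater, *Inhbb* exceeded *Inhba* by 30.3 and 18.8 times, *Tgfbr3* moved above *Inhbb* and *Acvr2a* above *Acvr1b*. With the union of exons, *Inhba* moved above *Acvr2b* in RNAlater. At this depth the intervals of *Fst*, *Fstl3* and *Acvr2b* included no difference.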

Other observations

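Several ligands and partners of the pathway were not seen in these cells. The wider list held 4 genes with 0 counts in both libraries, which allows a level of up to 0.0556 CPM (RNA-Best) or 0.0668 CPM (RNAlater), for counting error only. They were *Mstn* (myostatin, a ligand of the type II activin receptors), *Nodal*, *Inhbc* (the activin beta C subunit) and *Hjv*, listed in the annotation as *Hfe2*. *Inhbe*, the beta E subunit gene, had 0 counts in RNA-Best but 1 in RNAlater. *Amh*, the hormone of the same family that acts through *Amhr2*, had 6 and 8 counts, and *Amhr2* had 6 and 18. The beta subunit genes with more than 1 count in either library were thus *Inhba* and *Inhbb*.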
